A study of Tachysurus ussuriensis with 12 samples.

Results

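A set of 49 assembled transcripts of the Ussuri catfish, Tachysurus ussuriensis, was lower in kidney at 24 h than at 0 h of acute salinity stress. In gill their changes were smaller, within 0.5 in log2(FPKM + 1), and more often down than up. These are 49 of 84875 transcripts. They were chosen on a mean level of at least 2 FPKM over the 12 libraries, where FPKM (fragments per kilobase of transcript, scaled to the mapped fragments of the library) allows for transcript length and library size. In addition, the highest kidney library of 24 h had to lie below the lowest of 0 h, and the mean log2(FPKM + 1) of kidney had to differ by -1.5 or less. The gill difference had to lie within 0.5 of 0. All levels below are FPKM, and all changes and differences are on the log2(FPKM + 1) scale, which understates those of low transcripts.

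RNA of gill and kidney was sequenced in 4 groups of 3 libraries: kidney at 24 h, kidney at 0 h, gill at 24 h and gill at 0 h. The labels give no strain, age, salinity or fish behind a library, and the spread behind each p-value is that between libraries, which may be technical. They name no group kept for 24 h without the stress, so time and salinity cannot be told apart. In whole tissue, fewer cells of a type and less RNA per cell cannot be told apart either.

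The kidney of a freshwater bony fish filters blood in glomeruli, takes salt back in the tubules and passes a dilute urine, and in bony fish it is also a blood-forming organ. The gill takes up salt from the water through ionocytes and faces the outside medium directly. Saltier water changes the load on both organs. In water saltier than its blood a freshwater fish gains salt and loses water, but the labels do not say whether the stress reached that point. The files do not pair the transcript IDs with gene names or sequences, so no member can be given a role, and neither tissue could be checked against its marker genes. Each ID follows the pattern of the transcript assembler Trinity, with a read cluster, a component, a gene and an isoform. A last number, 1 to 4, is appended, and no label explains it.

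Total FPKM per library ran from 631998 to 714003, and sequencing depth relative to the other libraries, read from the steps between low values, from 0.864 to 1.12. The number of fragments behind a value is unknown for nearly all members. In the member with the smallest fall, all 12 values multiplied by relative depth lay within 0.104 of a whole multiple of the smallest one. The highest multiple was 1 in kidney at 24 h and 5 in kidney at 0 h. If the smallest step is 1 fragment, the change of this member rests on a handful of them. No other member met this check within 0.15. The check takes a member's smallest value as 1 step, so it misses members whose smallest value spans several. Other members may thus rest on few fragments too. Kidney 0 h replicate 2 stood apart, with a median level over all transcripts of 1.26 FPKM against 1.85 to 2.22 in the other 11 libraries and a correlation of at most 0.838 with any other kidney library.

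Most transcripts that met the kidney part of the rule also had a lower gill level at 24 h, which makes the 49 a minority. In 1864 of the 42379 transcripts with a mean of 2 FPKM or more (4.4%) all kidney libraries of 24 h lay below those of 0 h, and 211 of these met the rule in kidney. Of these, 153 (72.5%) had a gill change of -0.5 or less, against 10.6% of the 42379. Another 9 (4.27%) had a gill change of 0.5 or more, against 10.9%. The 49 inside the gill limits made up 23.2%, whereas 78.5% of all 42379 lay inside them. The same rule with the kidney direction turned round found 196 transcripts that were higher in kidney at 24 h with gill inside its limits.

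The 49 were modest in level. Their mean in kidney at 24 h ran from 0 to 33.3 FPKM with a median of 1.78, and at 0 h from 2.82 to 103.6 FPKM with a median of 7.95. The level at 24 h was a median of 22.8% of that at 0 h. The kidney change ran from -2.64 to -1.51 with a median of -1.68. These values chose the members and carry no test. By library, the median of the 49 was 1.59, 1.64 and 2.08 FPKM in kidney at 24 h, and 10.6, 5.60 and 8.83 FPKM at 0 h. In gill the medians were 1.77, 1.72 and 1.89 FPKM at 24 h, and 2.60, 2.45 and 2.23 FPKM at 0 h. The kidney medians at 24 h thus sat close to the gill medians, and those at 0 h above them in every library. This holds for the medians and not for each member, as the members' gill means ran from 0 to 182 FPKM. Kidney 0 h replicate 2 was the lowest of its group in 35 of the 49 and the highest in 1. It was the lowest in 60.8% of the 34812 transcripts with a mean of 2 FPKM or more and a 0 h kidney level that allows a fall of 1.5, and the highest in 26.8%.

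**Figure D1:**
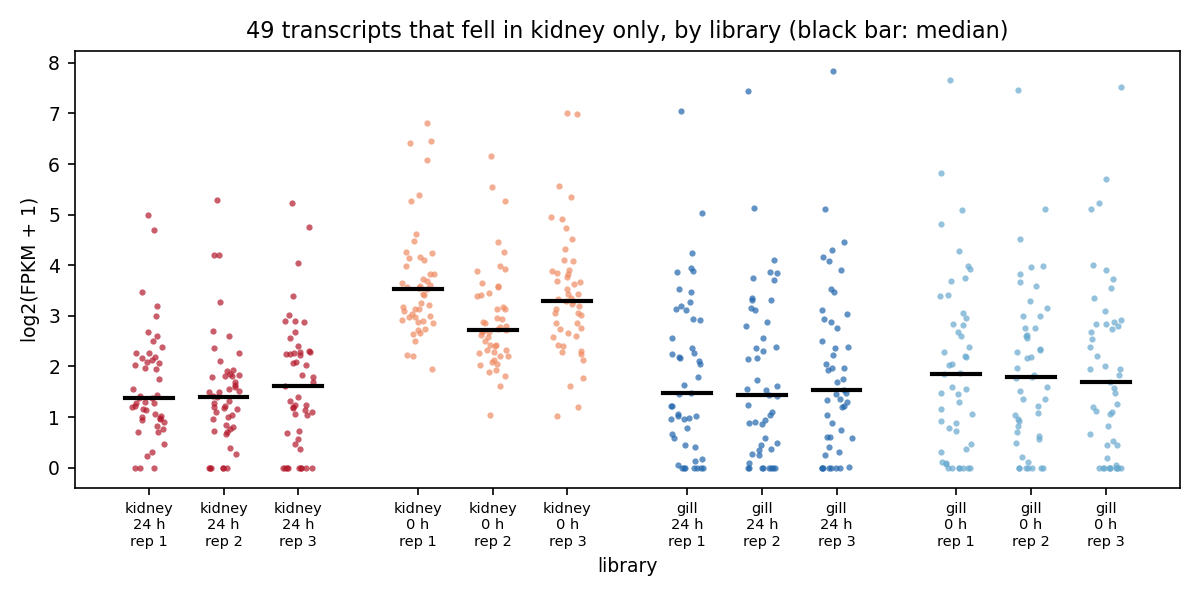
Level of the 49 transcripts in each of the 12 libraries, as log2(FPKM + 1), 1 point per transcript, with a black bar at the median. The medians of the kidney libraries of 24 h lie near those of gill, and those of the kidney libraries of 0 h are higher, kidney 0 h replicate 2 the least so.

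Summed over the members, the level was 164, 156 and 190 FPKM in kidney at 24 h, against 858, 463 and 783 FPKM at 0 h. In gill the sums were 339, 374 and 454 FPKM at 24 h and 489, 398 and 454 FPKM at 0 h, so the gill groups overlapped. The gill change was below 0 in 31 members, above 0 in 16 and exactly 0 in 2. Its median was -0.16 against 0.03 over the 42379 transcripts, and 31 of 49 is 63.3%, where 45.8% of all transcripts inside the gill limits had a change below 0. The rule used the size of this change and not its sign.

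Members just inside the limits differed little from transcripts just outside. The kidney change nearest to the limit was -1.51 in a member and -1.49 in another transcript. The gill change nearest to the limit was 0.496 in size in a member and 0.511 outside. The nearest overall means were 2.08 FPKM in a member and 1.96 FPKM outside.

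TRINITY_DN28360_c4_g1_i1_4 had the largest fall. It stood at 3.10, 3.29 and 4.31 FPKM in kidney at 24 h, against 37.5, 20.9 and 25.7 FPKM at 0 h. In gill it stood at 3.32, 4.16 and 5.82 FPKM at 24 h and at 6.12, 3.47 and 2.86 FPKM at 0 h. All 3 kidney libraries of 0 h were far above the other 9, which overlapped with each other. Its kidney change of -2.64 ran from -2.82 to -2.42 without single libraries. Kidney exceeded gill by 1.14 in the average of both times (SE 0.20, limma adjusted p = 0.000617). In the libraries of 24 h alone the difference was -0.24 (limma adjusted p = 0.453), and in those of 0 h alone 2.51. The averaged excess and its p-value thus rest on the kidney values of 0 h, which helped to choose this transcript. The alternatives gave the tissue difference limma adjusted p-values from 0.000283 to 0.453.

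TRINITY_DN26471_c3_g2_i1_4 had the next largest fall and varied far more. It was listed at 0 in kidney 24 h replicates 1 and 2 and had 3.78 FPKM in replicate 3, against 5.24, 4.05 and 22 FPKM at 0 h. In gill it had 0.729 FPKM in 1 library of 24 h and was listed at 0 in the other 5. A level under 0.001 FPKM is called listed at 0 here. Kidney 24 h replicate 3 came within reach of the lowest library of 0 h, and 1 library of 0 h was far above the rest. Its kidney change was -2.42, but -1.74 without kidney 0 h replicate 3, -3.17 without kidney 24 h replicate 3 and -4.54 with a pseudocount of 0.1. The difference between tissues was 1.83 (SE 0.45, limma adjusted p = 0.0062), and 0.49 in the libraries of 24 h alone (limma adjusted p = 0.596). Among the alternatives this p-value ranged from 0.00335 to 0.596. The transcript met the fit's minimum of 1 FPKM in at least 3 libraries only through kidney at 0 h. Its tissue difference and p-values thus rest in part on values that chose it.

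**Figure D2:**
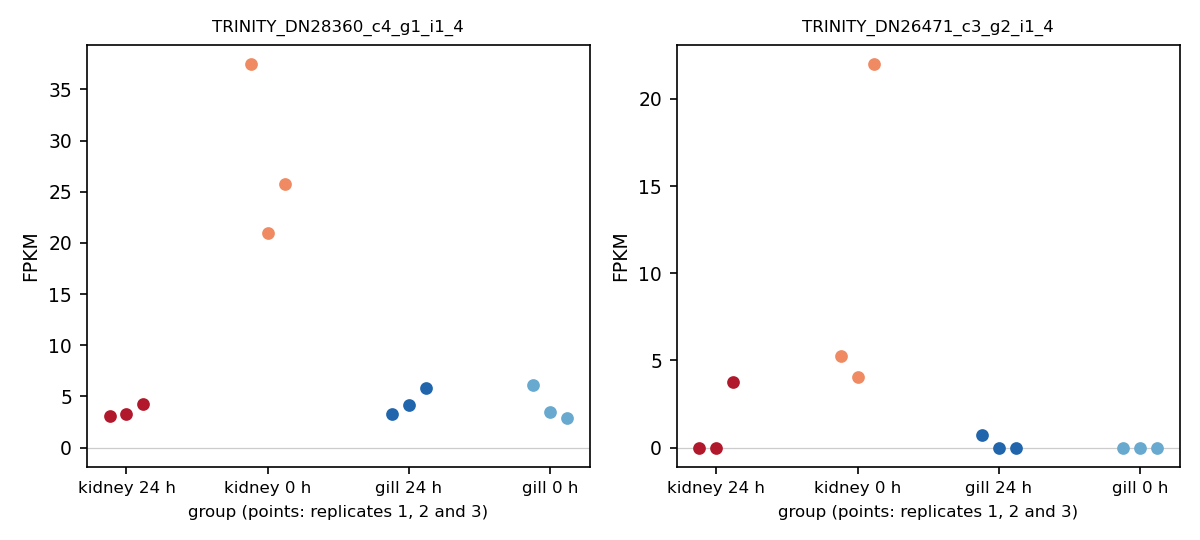
FPKM of the transcripts with the largest falls, 1 point per library, in kidney at 24 h and 0 h and in gill at 24 h and 0 h. In the left panel the 3 kidney libraries of 0 h lie between 20.9 and 37.5 FPKM above all others; in the right panel 1 kidney library of 0 h lies at 22 FPKM and the highest of 24 h at 3.78 FPKM.

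In limma over all 75716 tested transcripts, 18 of the 49 were called lower in kidney at 24 h at an adjusted p under 0.05, against 0.201% of all. In 1 of the 49 the kidney change was called below the gill change, against 0.0158% of all. The rule used these contrasts, so both counts are descriptions. All 49 members passed the low-level filter of the fit by kidney at 0 h alone, where the rule requires them to be high. Their lowest values there were 2.87, 1.06 and 1.03 FPKM in replicates 1, 2 and 3.

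The level in gill divided the members into classes. In 15 of 49 (30.6%) the mean over the 6 gill libraries was below 1 FPKM, a share that was 5.16% among the 34812 transcripts with the same 0 h kidney minimum and 5.66% among the 28462 of these that were also inside the gill limits. Transcripts with little gill signal meet those limits more often, at 89.8% with a gill mean below 1 FPKM and 81.3% with more. Of the 162 transcripts that met the kidney part of the rule and not the gill part, 3 (1.85%) had a gill mean below 1 FPKM. The share of such members is therefore partly set by the rule and is a description. In 3 of the 15 it was below 0.1 FPKM, and 2 were listed at 0 in all 6 gill libraries. In 26 members gill was at 1 FPKM or more and below the 0 h kidney mean (53.1% against 56.5%), and in 8 it was at or above that mean (16.3% against 38.3%). The median kidney change was similar in these classes, at -1.70 for gill below 1 FPKM, -1.66 for the 26 and -1.68 for the 8.

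**Figure D3:**
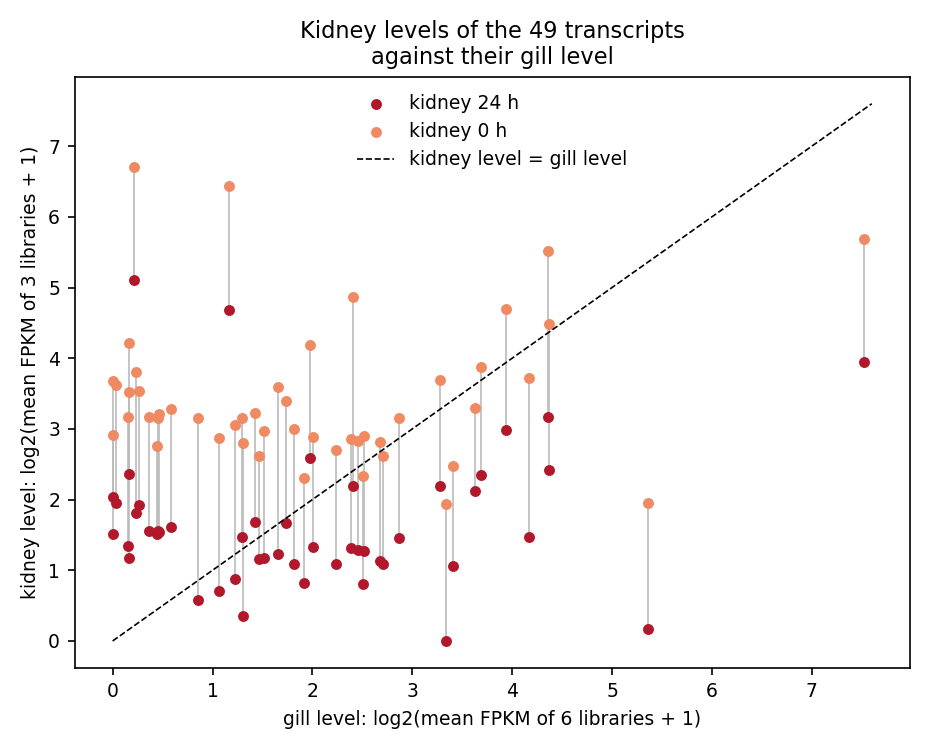
Kidney level at 24 h and 0 h (vertical axis, log2 of the 3-library mean FPKM + 1) of each of the 49 transcripts against its gill level (horizontal axis, log2 of the 6-library mean FPKM + 1), with a grey line joining the times of 1 transcript and a dashed line where both tissues are equal. On the left lie 15 transcripts with a gill mean below 1 FPKM, and at the right 8 whose gill mean is at or above their kidney mean of 0 h.

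Averaged over both times, 21 members were higher in kidney than in gill and 8 were higher in gill (limma adjusted p under 0.05), while 20 were not called. Of all tested transcripts 19.8% were called higher in kidney and 21.8% higher in gill. Among tested transcripts with the same 0 h kidney minimum the shares were 25.3% and 14.4%, and with the gill limits added 25.7% and 13.8%. The members' shares were 42.9% and 16.3%. The rule did not use this difference itself, but it asks for a high kidney level at 0 h and is easier to meet with little gill signal, so the kidney share is not independent of the choice. Of the 21, TRINITY_DN26471_c3_g2_i1_4, TRINITY_DN35953_c0_g1_i1_3, TRINITY_DN28320_c1_g4_i1_3, TRINITY_DN27756_c0_g1_i2_4, TRINITY_DN29464_c0_g6_i1_4, TRINITY_DN5499_c0_g1_i1_3 and TRINITY_DN17644_c0_g1_i1_3 passed the low-level filter of the fit only through kidney at 0 h. Their calls rest in part on values that chose them, and the 42.9% includes them. In the libraries of 24 h alone the counts were 10 and 16, and in those of 0 h alone 23 and 2. The rule asks for less in kidney at 24 h with gill inside its limits, so it moves these counts this way by itself. The shares of all transcripts called at single times were not computed. The difference ran from -4.31 to 5.71, with a median of 0.56 against 0.18 over transcripts with that minimum. Without gill 0 h replicate 3 the count higher in gill was 5. No other library moved either count by over 1.5 times.

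The largest excess in kidney was that of the member with the highest kidney level at 0 h. It had 24.8, 38.4 and 36.7 FPKM in kidney at 24 h, against 111, 71.0 and 128 FPKM at 0 h. In gill it had 0.939 FPKM in 1 library of 24 h and was listed at 0 in the other 5. The tissues did not overlap at either time, and the difference was 5.71 (SE 0.21, limma adjusted p = 1.28e-09). Another member followed at 4.52 (SE 0.38, limma adjusted p = 1.60e-06), with 30.8, 17.3 and 25.9 FPKM in kidney at 24 h, 84.3, 45.7 and 126 FPKM at 0 h, and at most 3.56 FPKM in any gill library. These remained well expressed in kidney at 24 h, at 32.1% and 28.9% of their 0 h means.

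The largest excess in gill was found in a member with 0.381 FPKM in kidney 24 h replicate 1 and 0 in replicates 2 and 3, against 4.67, 2.69 and 1.29 FPKM at 0 h. In gill it had 31.9, 33.9 and 33.5 FPKM at 24 h and 55.7, 33.8 and 51.2 FPKM at 0 h, a difference of -4.31 (SE 0.21, limma adjusted p = 1.61e-08). The highest gill level belonged to a member with 10.1, 17.4 and 15.5 FPKM in kidney at 24 h, against 66.5, 37.7 and 46.6 FPKM at 0 h. Gill held 132, 172 and 229 FPKM at 24 h and 203, 175 and 183 FPKM at 0 h, far above kidney in every library (difference -2.72, SE 0.18, limma adjusted p = 1.85e-07). Only 1 member was listed at 0 in all 3 kidney libraries of 24 h. It had 6.36, 1.06 and 1.03 FPKM in kidney at 0 h, and 5.98 to 14.6 FPKM in gill.

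**Figure D4:**
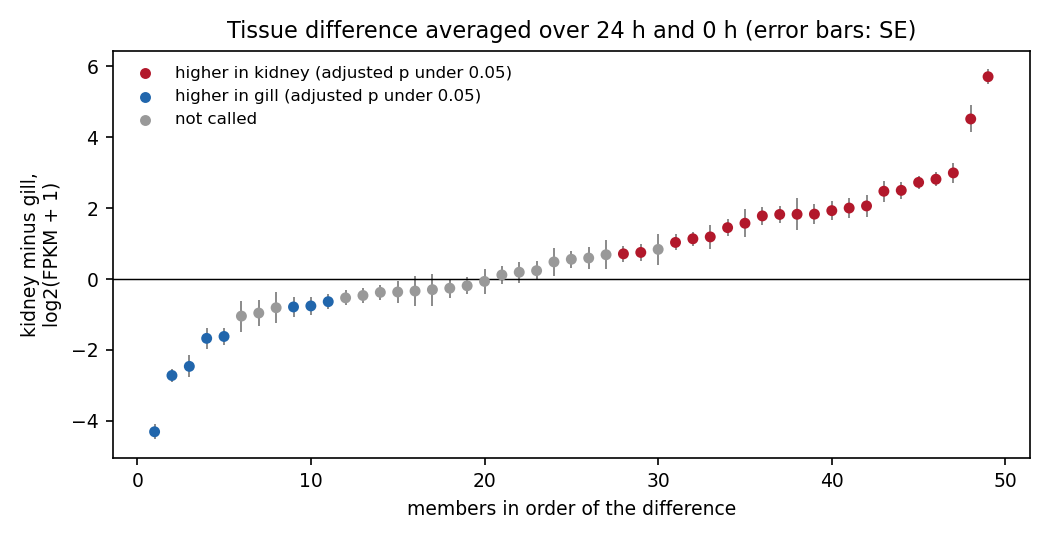
Difference between kidney and gill averaged over 24 h and 0 h, log2(FPKM + 1), for the 49 transcripts in rising order, with error bars of 1 SE from limma. Red points are the 21 called higher in kidney, blue points the 8 called higher in gill and grey points the 20 not called, over a range of -4.31 to 5.71.

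The order of the tissues shifted with the kidney fall. At 24 h the 3 kidney libraries lay below the 3 gill libraries in 19 members and above them in 13, where transcripts with the same 0 h kidney minimum gave 18.7% and 34.2%. At 0 h they lay below gill in 3 members and above in 26, against 14.1% and 22%. All 13 that were above gill at 24 h were also above it at 0 h. In 20 members (40.8%) the kidney mean was above the gill mean at 0 h and below it at 24 h, against 10.7% of transcripts with that minimum. The kidney side of these counts was used by the rule, which by itself moves them in this direction.

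Which kidney library stood highest went with the gill class, a pattern seen only after the values were known. Replicate 3 was the highest kidney library at both times in 9 of the 15 members with a gill mean below 1 FPKM, against 19.6% of transcripts with that gill level and the 0 h kidney minimum. Among the other 34 members this held for 3, against 14.7%. One of the 9 had 1.29, 1.01 and 3.90 FPKM in kidney at 24 h, against 7.52, 5.96 and 12.6 FPKM at 0 h. A pair of them, which share a Trinity component and may be pieces of 1 gene, had 1.23, 0.756 and 3.86 FPKM, and 1.20, 1.48 and 3.17 FPKM, in kidney at 24 h. At 0 h that pair had 6.86, 5.45 and 11.8 FPKM, and 6.48, 4.02 and 13.2 FPKM. In the 34 members with more gill signal replicate 1 was the highest kidney library of 0 h in 24, against 33.9% of such transcripts. One of these had 0.241, 0.301 and 0.289 FPKM in kidney at 24 h, against 10.8, 2.79 and 4.31 FPKM at 0 h. Another had 1.34, 1.64 and 1.05 FPKM at 24 h, against 18, 6.65 and 8.38 FPKM at 0 h. Replicates of 24 h and 0 h are different samples, and the part of sample differences in these falls was not tested.

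All 6 kidney libraries entered the choice, so the choice was repeated without 1 library, and that library was then read. Without kidney 24 h replicate 1, 78 transcripts were chosen, and in 62 of them (79.5%) replicate 1 lay below all libraries of 0 h, against 15.1% of all transcripts with the minimum mean. For replicate 2 this was 41 of 53 (77.4%, against 16.7%). For replicate 3 it was 50 of 125, where 13.4% of all transcripts did so, and the median change in that library was -0.38. Read from the 0 h side, replicate 1 lay above all libraries of 24 h in 30 of 43 transcripts chosen without it (69.8%, against 24.7%). Replicate 2 did so in 70 of 137 (51.1%, against 22%) and replicate 3 in 49 of 58 (84.5%, against 27.3%). Each left-out library followed the others more often than in transcripts at large, least so kidney 24 h replicate 3 and kidney 0 h replicate 2. These shares still rest on the opposite group, which had been used in the choice.

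Leaving out 1 library of each time removes that dependence, and the result then differed between libraries. With kidney 24 h replicate 1 or 2 left out, the median difference of the left-out 24 h library minus the left-out 0 h library ran from -0.76 to -0.02 over the 6 pairs, below the median of all transcripts in each pair. With replicate 1 left out, the 24 h library was lower in 62.8%, 51.5% and 70.2% of the chosen transcripts against 0 h replicates 1, 2 and 3, where all transcripts gave 44.5%, 32.9% and 47.1%. With replicate 2 left out it was lower in 71.1%, 59.7% and 76.0%, where all gave 45.3%, 33.7% and 47.6%. With kidney 24 h replicate 3 left out, the medians were 0.93, 0.13 and 0.83 against 0 h replicates 1, 2 and 3, where all transcripts gave 0.06, 0.31 and 0.03. The left-out 24 h library was then lower in 19.8%, 42.9% and 26.5% of 222, 184 and 226 chosen transcripts, against 42.9%, 32.4% and 45.2% of all. Most transcripts chosen without replicate 3 were thus not lower in it than in the left-out 0 h library, and the rule keeps those that were low in all 3. The library name of that sample ends in 3, whereas those of replicate 3 in the other groups end in 4, and the labels do not say why. In none of the 9 pairs did the held-out median reach a fall of 1.5.

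**Figure D5:**
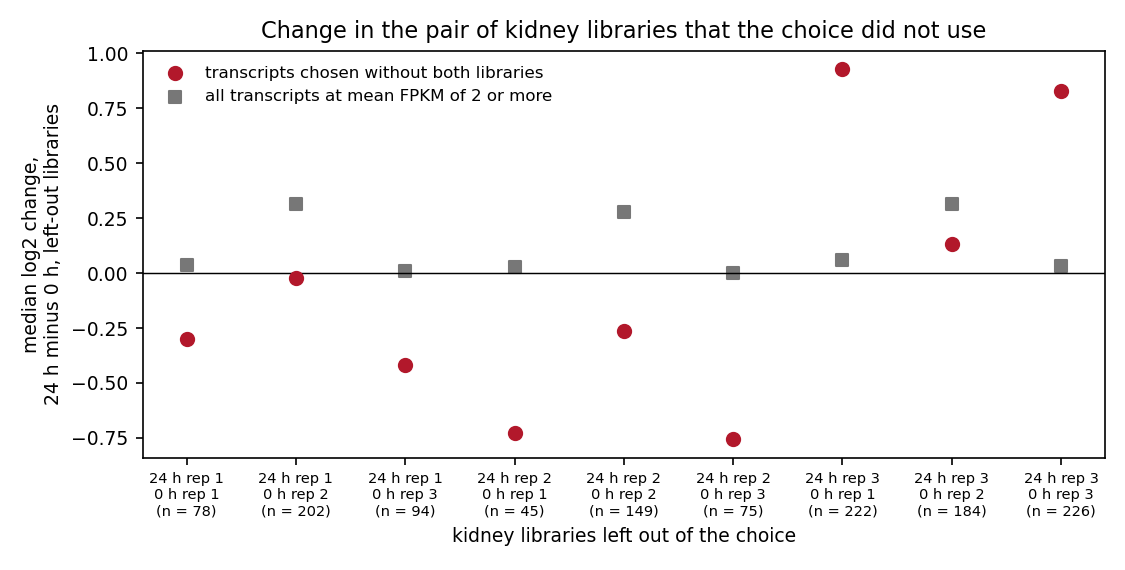
Median change, log2(FPKM + 1), 24 h minus 0 h, between a pair of kidney libraries left out of the choice (red), for the 9 possible pairs, with the number of transcripts chosen without them, and the median over all transcripts with a mean of 2 FPKM or more (grey squares). The red points lie below the grey ones for kidney 24 h replicates 1 and 2, at down to -0.76. Where kidney 24 h replicate 3 was left out they reach 0.93 and lie above the grey ones, except with 0 h replicate 2 (0.13 against 0.31).

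Kept as chosen, the 49 members had a median kidney change between -1.86 and -1.58 when single kidney libraries were left out, the strongest of these without kidney 0 h replicate 2. Of the 49, 47 still reached -1.5 without that library, and 30 without kidney 0 h replicate 1. The number of transcripts that met the whole rule rose to 137 without kidney 0 h replicate 2, to 125 without kidney 24 h replicate 3 and to 78 without kidney 24 h replicate 1, of which 45, 37 and 41 were among the 49.

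The final number of the ID, which the rule did not use, was spread unevenly. Of the 49, 19 ended in 3 and 19 in 4 (38.8% each), against 30.3% and 24.3% of transcripts with the same 0 h kidney minimum. Another 6 ended in 1 (12.2% against 26.1%) and 5 in 2 (10.2% against 19.3%). Of the 15 members with a gill mean below 1 FPKM, 14 ended in 3 or 4, and the share among all transcripts with that gill level was not computed. The 162 other transcripts that met the kidney part of the rule had 11.7% ending in 1, 22.8% in 2, 40.7% in 3 and 24.7% in 4. They resembled the members for 1 and 3, and the whole background more than the members for 2 and 4. The 196 with a rise in kidney and gill inside its limits had 58.7% ending in 1, 10.2% in 2, 15.3% in 3 and 15.8% in 4. The share of members whose isoform number was 1 was 79.6%, against 61.4% of transcripts with a mean of 2 FPKM or more.

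No row of the table shares its Trinity gene and final number with another row, so other forms of a member's gene were not analysed here. Of the 49, 15 had a non-member of the same read cluster, component and final number with a mean of 2 FPKM or more, 20 such rows in all. Their kidney change had a median of -0.16, against 0.08 over all 42379, and was below 0 in 13 of 20 (65.0% against 41.0%). It was -1 or less in 2 and 1 or more in 2. One related row with a change of -1.26 resembled a member, at 0.649, 2.01 and 3.96 FPKM in kidney at 24 h, against 7.02, 4.55 and 6.64 FPKM at 0 h. The member had 1.59, 0 and 3.94 FPKM at 24 h, against 6.88, 5.37 and 7.29 FPKM at 0 h, and both were listed at 0 in all 6 gill libraries. Another related row, at 0.234, 0.307 and 0.807 FPKM in kidney at 24 h, against 19.6, 2.93 and 5.79 FPKM at 0 h, stayed outside the 49 because its gill change was -0.88. One related row went the other way, at 3.41, 6.16 and 14.3 FPKM in kidney at 24 h, against 1.5, 1.85 and 1.18 FPKM at 0 h, a change of 1.65.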

How the data were processed

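The authors deposited FPKM values of 84875 assembled transcripts, with a column for each of the 12 libraries, per the file headers. Reads were trimmed with Trimmomatic, per the submitters' processing notes. No source used here gives the assembler's settings, the aligner or the counter. Some deposited FPKM values lie far below what 1 fragment could give, so levels under 0.001 were read as listed at 0. Tissue and time in the labels set the groups. The rule and the named transcripts (by ID the 2 largest kidney falls; without ID the highest kidney 0 h and gill levels, the largest tissue differences and those nearest each limit) were set with earlier results of these data known. Other members were picked after their values were seen. Marker lists could not be matched to any ID.

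limma 3.58.1 (R 4.3.3) was fitted to log2(FPKM + 1), with a mean-variance trend, 4 group means over all 12 libraries and 8 residual degrees of freedom. Transcripts with 1 FPKM or more in at least 3 libraries (75716) were tested, with Benjamini-Hochberg adjustment over all of them, two-sided, and called at an adjusted p under 0.05. The fit was tested on simulated data for the tissue difference only, without changes over time or a choice by the rule. That does not cover calls of change over time or calls among chosen members. The tested contrast, kidney minus gill averaged over times, is orthogonal to the changes that the rule used, although the rule bounds the levels behind it. Relative depth came from 11963 transcripts at exactly 0 in at least 4 libraries. Other tables used Python 3.11.15.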

Additional observations from a re-analysis of the deposited data

Results flagged for a closer look

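The change over time differed between the tissues in 1 of the 49 members by limma's test of the difference itself (adjusted p under 0.05), against 0.0158% of all tested transcripts with the kidney change below the gill change. It was TRINITY_DN28360_c4_g1_i1_4, whose kidney change was below its gill change (log2 difference -2.74, SE 0.40, limma adjusted p = 0.0453). At an unadjusted limma p under 0.05 there were 41 of 49, and the share of all tested transcripts at that level was not computed. The rule chose the members on these changes, so neither count is independent support, and nor is the p-value of this transcript. That p-value was not recomputed without single libraries or with other scaling.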

How the results depend on the processing

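The number of transcripts meeting the rule, 49, was 99 with a pseudocount of 0.1 (36 of the 49 among them), 169 and 10 with falls of at least 1 and 2, 26 and 98 with gill limits of 0.25 and 1, and 84 and 17 with means of at least 1 and 5 FPKM. It ranged from 41 to 137 without single libraries and was 72 with median-ratio scaling, 73 with quantile normalization, 53 with equal totals and 61 where groups may overlap. The counts higher in kidney and in gill, 21 and 8, were 10 and 16 in libraries of 24 h alone, and 23 and 2 in those of 0 h alone, where each time carries the values that chose the members. For these single times the shares of all transcripts called were not computed. Without single libraries the counts ranged from 19 to 22 and from 5 to 9. In libraries of 24 h alone the difference of TRINITY_DN28360_c4_g1_i1_4 was -0.24. A replicate block by the number in the titles left 21 and 8, and at 24 h alone gave 10 and 15. Whether the numbers pair libraries is unsettled: deviations of same-numbered kidney and gill libraries correlated at 0.109 to 0.137 at 24 h and at -0.00854 to 0.0915 at 0 h. Those of same-numbered libraries of 24 h and 0 h correlated at -0.0493 to 0.0797 in kidney and at -0.0249 to 0.0125 in gill. In library names, kidney 24 h replicate 3 is numbered 3 and the other replicates 3 are numbered 4. Leaving out pairs of libraries, the block at 24 h, the background with the gill limits, reading members without single libraries and the component rows were chosen after seeing the data. Unknown fragment counts limit the precision of the lowest members.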
